A study of Mus musculus with 30 samples.

Results

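Ovaries that carried much of the transcript of Akr1c18 were compared with ovaries that carried little of it, in a series of 30 ovary libraries from 15 C57BL/6 mice. The high group was every library with at least 180 normalized counts of Akr1c18 and the low group every library with at most 80. Both were taken from the 23 libraries with at most 5000 normalized counts of Ovgp1, a secreted oviduct glycoprotein. The high group held 5 libraries of 5 mice and the low group 10 libraries of 8 mice. The mouse DSS_10.3 gave a library to each group, so 12 mice were compared, and 15 of the 30 libraries lay outside the comparison. Akr1c18 and Ovgp1 chose the libraries, so their levels describe the groups and are no result.

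The series compared female mice that drank 3% dextran sulfate sodium (DSS) for 7 days while sexually immature with littermates that did not. DSS is a sulfated polysaccharide that injures the lining of the colon and causes colitis. Left and right ovaries were harvested separately after sexual maturity, from 7 DSS mice and 8 control mice, and carry the mouse's number in their labels. The mature age, the stage of the estrous cycle and any mating are not stated in the labels. The high group held the right ovary of DSS_10.4, the left of DSS_10.3, the right of DSS_16.3 and the left ovaries of control_10.5 and control_10.6. The low group held the right ovaries of DSS_10.3 and DSS_11.2, the left of DSS_15.1, both ovaries of control_11.4 and control_13.5, the left of control_13.4 and the right of control_15.3 and control_15.4. All groups are whole ovaries, so fewer cells of a type and less RNA per cell cannot be told apart.

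Akr1c18 encodes the enzyme that converts progesterone to its inactive 20α-hydroxy form. In rodents it is kept low by prolactin in active corpora lutea, and it is switched on, with prostaglandin F2α as an inducer, in those that are ending their function (luteolysis). The gene is therefore known as a marker of old or regressing corpora lutea, several generations of which lie in the ovary of a cycling mouse. Functional luteolysis is also known for a fall in the machinery of progesterone synthesis (Star, Cyp11a1, Hsd3b1, Scarb1) and structural luteolysis for cell death and entry of macrophages.

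Akr1c18 stood at 308 and 248.8 normalized counts in the high libraries of DSS_10.4 and DSS_10.3, at 186 in that of DSS_16.3, and at 499 and 503 in those of control_10.5 and control_10.6. In the 10 low libraries it had a lowest value of 18.3, a median of 58.5 and a highest of 66.7. The nearest libraries left out were the left ovary of control_15.4 at 170, below the upper threshold, and the right ovary of DSS_13.2 at 82.3, above the lower one. In all, 8 libraries lay between both thresholds, those of control_15.4 and DSS_13.2 just named among them, and 7 exceeded the limit on Ovgp1.

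**Figure D1:**
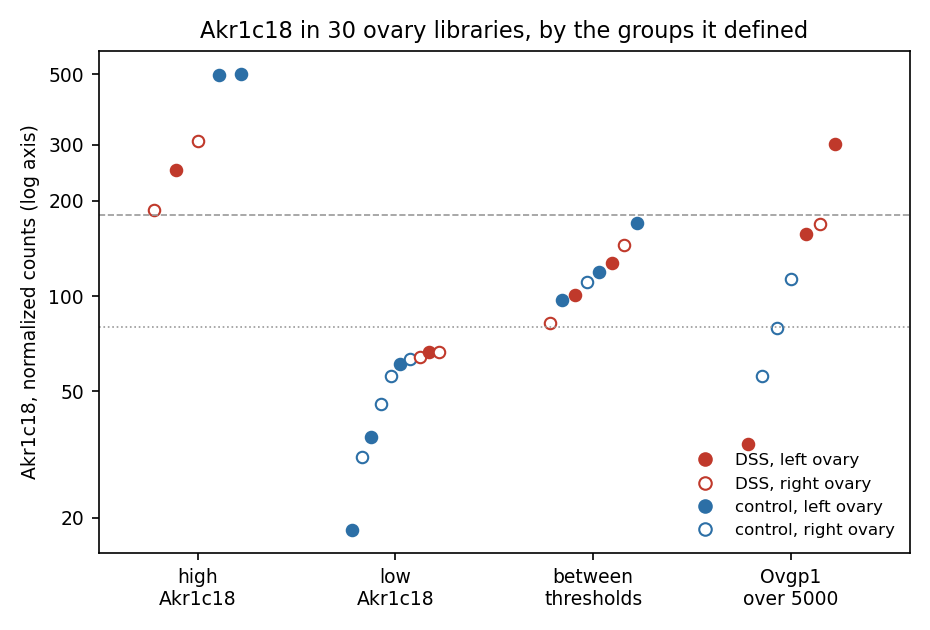
Normalized counts of Akr1c18 (log axis) in 30 libraries: each point is 1 ovary, colored by treatment and filled for left ovaries, with dashed and dotted lines at 180 and 80. The thresholds cut a continuous range; 7 libraries with over 5000 counts of Ovgp1 span both lines.

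The groups differed in more than Akr1c18. Of the high libraries, 4 of 5 came from mice whose label begins with 10, against 1 of 10 low libraries; the labels do not say what that number stands for. The high group held 3 DSS and 2 control libraries, 3 left and 2 right, against 3 DSS and 7 control, 4 left and 6 right in the low group. Depth was alike, with 3950748 to 6257834 reads recovered per library in the high group and 3713552 to 5931590 in the low group. Since each group was set by a measured transcript, a gene that differs between them is one that varied together with Akr1c18 among these ovaries, not one shown to respond to it.

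Averaged over both ovaries, Akr1c18 did not differ between treatments beyond the spread between mice. It was at 147 ± 68.6 in DSS mice (SD, n = 7) and 129 ± 113 in control mice (n = 8), a mean log2 difference of 0.55 (exact two-sided permutation p = 0.292 over 6435 splits). In right ovaries alone DSS mice stood at 146 ± 87.0 and control mice at 69.4 ± 29.7 (log2 0.96, exact permutation p = 0.0263); for left ovaries the value was 0.13, with an exact permutation p of 0.865. The difference between the sides was not tested. Of the mice with libraries in 1 group only, 2 DSS and 2 control mice were in the high group and 2 DSS and 5 control mice in the low group (Fisher's exact p = 0.576).

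2 genes rose in high Akr1c18 ovaries and none fell, among 14420 tested with limma on log2(value + 1) with a Benjamini-Hochberg adjusted p under 0.05. They were C3, the central component of complement, and Cyp2e1, a cytochrome P450 of ethanol and fatty acid metabolism. They made up 0.0139% of the genes tested, and the share called lower was 0%. At an unadjusted p under 0.05 there were 409 higher (2.84%) and 288 lower (2%), and 50.4% of all genes had a difference above 0. The authors' scaling centers the libraries, so a shift of all genes could not be seen in these values. By edgeR 21 genes were called, all higher, and by DESeq2 35 higher and 2 lower, on the reads recovered from the deposited values. Both tools were fitted without a term for the mouse, so ovaries of the same mouse counted as independent.

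The sequences upstream of Akr1c18 and of both genes that passed are shown, since these are the genes that were high together. They are RefSeq promoters in the build GRCm38.p6, 250 bases before to 50 after the annotated start, read 5′ to 3′ on each gene's own strand. Akr1c18 lies at chr13:4150597-4150896 on the minus strand, C3 at chr17:57228087-57228386 on the minus strand and Cyp2e1 at chr7:140763569-140763868 on the plus strand.
Akr1c18: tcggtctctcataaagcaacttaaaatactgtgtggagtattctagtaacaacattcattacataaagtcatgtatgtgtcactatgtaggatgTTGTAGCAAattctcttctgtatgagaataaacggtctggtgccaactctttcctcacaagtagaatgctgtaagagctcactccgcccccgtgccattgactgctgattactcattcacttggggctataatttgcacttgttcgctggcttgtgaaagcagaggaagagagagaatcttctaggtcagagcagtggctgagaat
C3: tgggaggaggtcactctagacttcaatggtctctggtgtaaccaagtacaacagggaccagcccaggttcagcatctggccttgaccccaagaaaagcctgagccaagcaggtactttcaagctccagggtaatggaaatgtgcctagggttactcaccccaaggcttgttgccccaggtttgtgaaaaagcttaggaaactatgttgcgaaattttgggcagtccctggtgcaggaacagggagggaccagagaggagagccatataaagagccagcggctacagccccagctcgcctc
Cyp2e1: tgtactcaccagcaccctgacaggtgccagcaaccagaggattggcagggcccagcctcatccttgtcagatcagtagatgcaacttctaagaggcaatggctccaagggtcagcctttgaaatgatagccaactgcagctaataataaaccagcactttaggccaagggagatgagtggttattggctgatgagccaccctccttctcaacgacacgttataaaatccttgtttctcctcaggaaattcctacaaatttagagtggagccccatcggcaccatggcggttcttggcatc
Capitals mark the match to a searched motif. Of 4 motifs searched on both strands, NBRE (AAAGGTCA, bound by NR4A receptors), STAT (TTCNNNGAA), AP-1 (TGANTCA) and C/EBP (TTGCNNCAA), the only match was one to C/EBP at bases 95 to 103 of the Akr1c18 promoter, read on the opposite strand and overlapping no other match. Among 32851 promoters of the same length, 1.51% held NBRE, 8.3% STAT, 7.81% AP-1 and 2.08% C/EBP. A match is a run of letters and not a shown binding site.

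C3 is made by liver, macrophages, adipocytes and epithelia. Its level was 591, 537 and 711 normalized counts in the high libraries of DSS_10.4, DSS_10.3 and DSS_16.3 and 833 and 201 in those of control_10.5 and control_10.6, against a lowest value of 80.6, a median of 158 and a highest of 261.1 in the 10 low libraries. Of the high libraries, 4 stood above every low library and that of control_10.6 stood within the low range. Averages were 574 ± 238 in the high group (SD, n = 5) and 159 ± 50.7 in the low group (n = 10), a log2 difference of 1.77 (SE 0.26, limma adjusted p = 0.0121).

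Cyp2e1 measured 69.5, 29.3 and 30.02 in the high libraries of the DSS mice, in the same order, and 52.3 and 19.9 in those of control_10.5 and control_10.6. In low libraries it ran between 9.57 and 18.6 with a median of 12.96, so the groups did not overlap. Averages were 40.2 ± 20.2 and 12.9 ± 2.92 normalized counts in high and low libraries (SD, n = 5 and 10; log2 1.46, SE 0.24, limma adjusted p = 0.0342). It is 1 of 7 genes (0.0485% of those tested) whose high libraries all stood above all low libraries. Besides it these were Pla2g16, Pnpla3, S100a4, Gm45158, Ly6c2 and Adgra1, and in the other direction Gm10240 and Pias2 (0.0139%). None of the other 8 passed limma's test. How many genes would separate in this way by chance was not tested, so the separation is given as a description.

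The calls rested on few libraries. Leaving out 1 mouse in turn gave between 0 calls, without DSS_10.3, DSS_16.3, control_10.5 or control_11.4, and 16 without control_10.6; there were 7 without DSS_15.1, 9 without control_15.3, and 1 without DSS_11.2, control_13.4 or control_13.5. A fit with 1 averaged value per mouse left out DSS_10.3, which gave a library to each group. No gene was called there by limma (395 higher and 315 lower at an unadjusted p under 0.05). Leaving out DSS_10.3 alone also gave 0 calls, so averaging and the loss of that mouse cannot be told apart. The adjusted p under that setting was 0.103 for both C3 and Cyp2e1; over all 36 alternatives it lay between 5.7e-06 and 0.999 for C3 and between 1.3e-05 and 0.999 for Cyp2e1, and both had a difference above 0 in all 36.

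**Figure D2:**
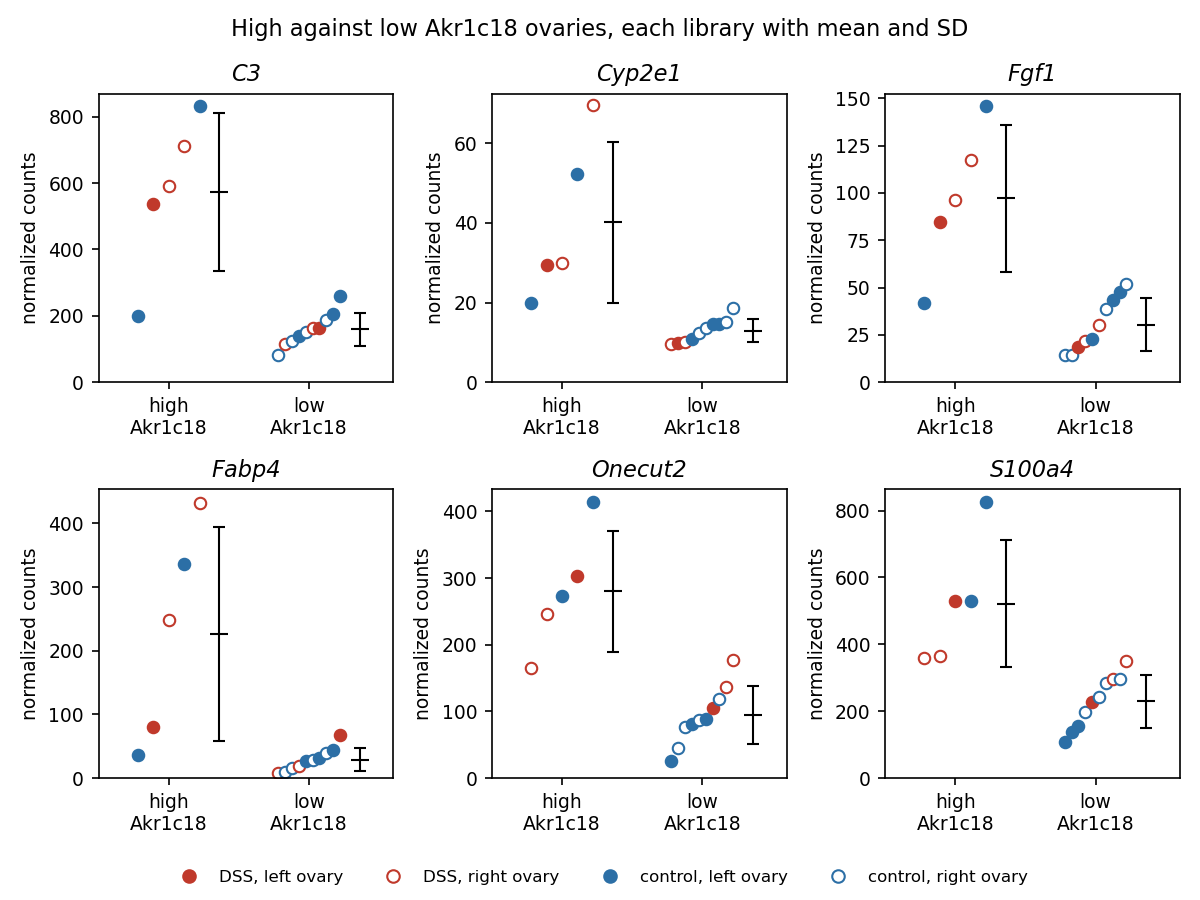
Normalized counts of 6 genes in high (left) and low (right) Akr1c18 ovaries: points are libraries, colored by treatment and filled for left ovaries, and bars are the mean and SD (n = 5 and 10). C3 and Cyp2e1 passed limma's test; S100a4 separates the groups without passing it, and Fabp4 spreads widely among the high libraries.

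The genes next in p did not pass. On the higher side these were Fgf1, a fibroblast growth factor, Fabp4, the fatty acid carrier of adipocytes, and Onecut2, a homeobox factor and a member of the list of luteal markers, each at an adjusted p of 0.0535. Fgf1 averaged 97.2 ± 38.8 in high and 30.4 ± 14.2 in low libraries (log2 1.67), and its locus overlaps Arhgap26 on the other strand, so its reads are uncertain. On the lower side these were Arhgdig, Gm10240, Hspa1a, Bank1 and Rnf44. Arhgdig, whose locus overlaps Axin1 and Rgs11, averaged 82.8 ± 14.1 against 123 ± 15.7 (log2 -0.57, adjusted p = 0.0681), and Gm10240, a processed pseudogene whose reads may belong to its parent gene, 139 ± 25.9 against 213 ± 39.5 (log2 -0.62, adjusted p = 0.122). Hspa1a, the inducible heat shock protein 70, averaged 17.3 ± 6.26 against 34.3 ± 12.7, Bank1, a B cell adaptor, 2.67 ± 1.86 against 7.85 ± 2.98, and Rnf44, a ubiquitin ligase, 165 ± 17.2 against 212 ± 26.6, with adjusted p between 0.317 and 0.461.

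Onecut2 is described next for its regressions on Akr1c18, given after its values by group. It had 246, 303.1 and 165 normalized counts in the high libraries of DSS_10.4, DSS_10.3 and DSS_16.3 and 414 and 272.6 in those of control_10.5 and control_10.6, against a lowest value of 26.5, a median of 88.0 and a highest of 177 in the low libraries. The groups overlapped through 1 library each: the right ovary of DSS_16.3 in the high group stood below the right ovary of DSS_10.3 in the low group. Averages were 280 ± 90.6 in the high group (SD, n = 5) and 94.3 ± 43.3 in the low group (n = 10), a log2 difference of 1.66 with a 95% interval of 1.02 to 2.29.

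S100a4, a calcium-binding protein of fibroblasts and leukocytes named here after its values were seen, had 358, 529 and 366 in the high libraries of the DSS mice and 827 and 530 in those of control_10.5 and control_10.6. The low libraries ran from 108 to 350 with a median of 235, so the groups did not overlap, by a narrow margin. The log2 difference was 1.20 (SE 0.23, limma adjusted p = 0.0553). Gm45158, a long intergenic RNA also picked out by its values, was at 53.2 ± 9.83 in the high group and 23.8 ± 10.42 in the low group (log2 1.24, adjusted p = 0.122).

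A regression on log2(Akr1c18 + 1) over all 23 libraries with little Ovgp1, which uses the groups' own libraries and the 8 between them, called 6 genes, all rising with Akr1c18. They were Onecut2 (slope 0.63 log2 per doubling of Akr1c18, limma adjusted p = 8.6e-06), S100a4 (slope 0.45, adjusted p = 0.00035), Gm45158, the complement genes C1qa and C1qc of macrophages, and Gm28196. C3 and Cyp2e1 were not among them, with adjusted p of 0.138 and 0.160. Over the 36 alternatives the adjusted p of Onecut2 lay between 8.6e-06 and 1.0 and that of S100a4 between 0.00035 and 1.0.

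The 15 libraries outside the comparison were used to ask whether the same genes followed Akr1c18 there, with Ovgp1 as a covariate. They are no check in separate animals: of the 12 mice that gave them, 9 also gave a library to the comparison. No gene passed limma's test of the slope among 14779 (0%), with 426 positive (2.88%) and 370 negative (2.5%) at an unadjusted p under 0.05. Onecut2 had the smallest p of all genes, with a slope of 0.63 (SE 0.12, unadjusted p = 3.8e-05, adjusted p = 0.564). In the 8 between libraries it ran from 88.2 to 185 and in the 7 with much Ovgp1 from 51.2 to 255.7, the highest of these in the left ovary of DSS_11.1, which also had the most Akr1c18 of the 7 at 302.

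The 5 genes of smallest p in each direction of the comparison were correlated with Akr1c18 over these 12 mice. Each mouse was given 1 mean value over its outside libraries. Onecut2 had a Pearson r of 0.81 (permutation p = 0.00216, 0.0216 adjusted over 10 genes) and a Spearman rho of 0.65 (permutation p = 0.0251, 0.251 adjusted). Without the 2 mice farthest from the median of Akr1c18 r was 0.49, so the relation rests in part on those mice. The other 9 genes had r between -0.37 and 0.43, with adjusted p between 0.522 and 0.818. C3 had a slope of -0.07 and Cyp2e1 of -0.24 in the outside libraries (adjusted p = 0.999 and 0.990), S100a4 0.34 and Gm45158 0.62 (unadjusted p = 0.0322 and 0.00341, adjusted p = 0.892 for S100a4). Restricted to the 8 libraries between the thresholds, which span a small range of Akr1c18, the slope of Onecut2 was 1.13 and its p ranked 901 of 14488; limma called 4 genes there, Krt10, Lgals7 and Sfn of keratinized epithelium and Star.

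**Figure D3:**
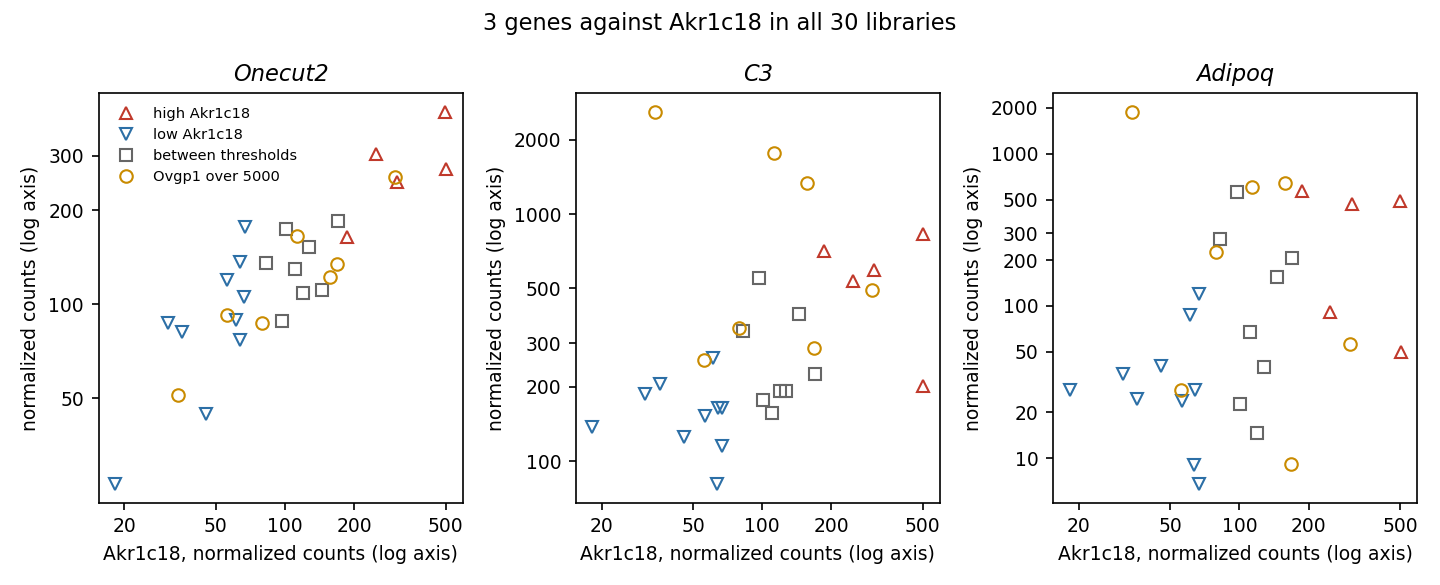
Onecut2, C3 and Adipoq against Akr1c18 in all 30 libraries, normalized counts on log axes with a symbol for each set of libraries. Onecut2 tends to be higher where Akr1c18 is higher, though the high library of DSS_16.3 lies below the low library of DSS_10.3. Its panel includes the libraries from which it was picked. C3 and Adipoq reach their highest values, 2584 and 1874, in a library with over 5000 counts of Ovgp1 and only 34.1 counts of Akr1c18.

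Each of the 5 mice with a high ovary also gave its other ovary, which shares the animal, its treatment and its hormones in blood. Akr1c18 in the other ovary was 157 and 66.7 in DSS_10.4 and DSS_10.3, 101 in DSS_16.3, and 113 and 111 in control_10.5 and control_10.6, so the high ovary had 1.85 to 4.53 times as much. Over all 15 mice the ovary with more Akr1c18 had a median of 1.88 times the level of its partner. Left and right ovaries were correlated over mice (Pearson r = 0.52, permutation p = 0.0482; Spearman rho = 0.54, permutation p = 0.0399), with r = 0.36 without the 2 mice farthest from the median.

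Between both ovaries of these 5 mice no gene was called by limma with the mouse as a block (0% of 14730; 440 higher and 603 lower at an unadjusted p under 0.05, which is 7.08%; no other tool was run here). A difference above 0 was found for 49.1% of genes, and 3.68% were higher and 3.3% lower in the high ovary of all 5 mice. S100a4 was higher in the high ovary of 5 of 5 mice (log2 0.85, adjusted p = 0.261) and Onecut2 in 4 of 5 (log2 0.82, adjusted p = 0.615). The exception was DSS_16.3, with 165 counts of Onecut2 in its high ovary and 175 in the other. Both genes were picked by their values in the same 5 high libraries, so these counts are a description and no separate check. The other ovary of DSS_10.3 was itself a low library, so for S100a4, named because its groups did not overlap, that pair was fixed beforehand. C3 was higher in 3 of 5 mice (log2 0.47) and stood at 833 in the high ovary of control_10.5 against 1765 in the other, and at 591 against 1330 in DSS_10.4. In both of those mice the other ovary exceeded the limit on Ovgp1.

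**Figure D4:**
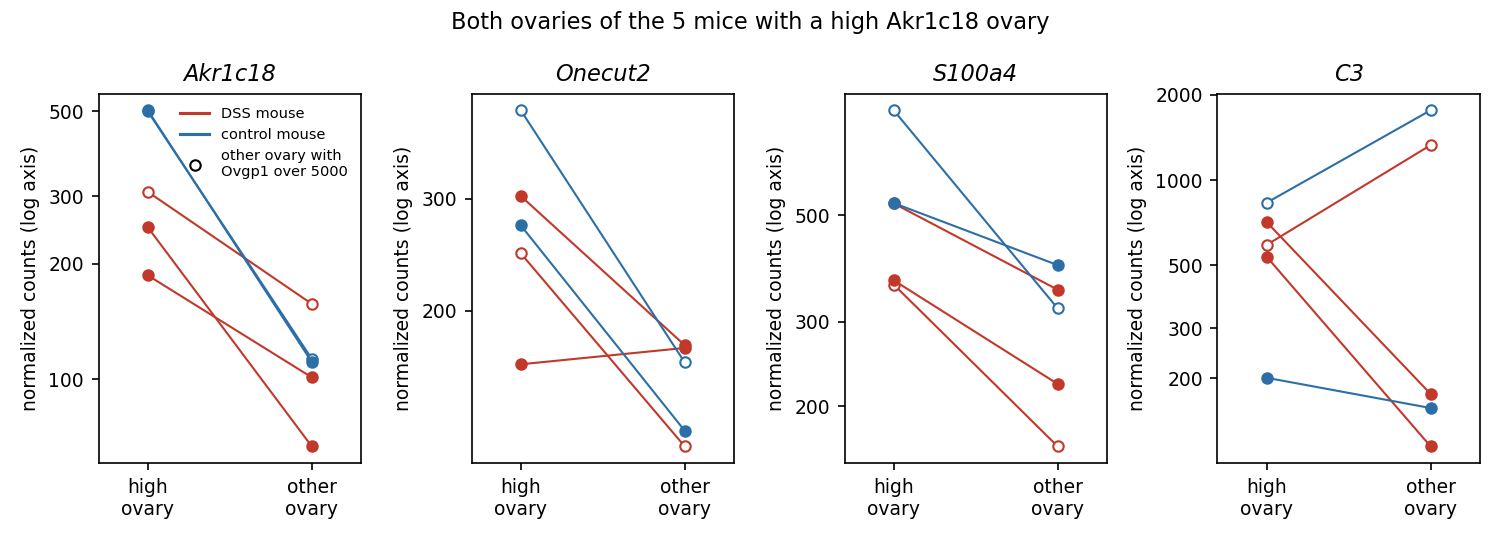
Akr1c18, Onecut2, S100a4 and C3 in the high ovary (left) and the other ovary (right) of 5 mice, normalized counts on log axes, with lines joining ovaries of a mouse and open symbols for mice whose other ovary exceeded 5000 counts of Ovgp1. S100a4, picked by its values in these high ovaries, is higher in the high ovary of all 5 mice and Onecut2 in 4. C3 goes the other way in the mice with open symbols.

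Transcripts of fat cells were high in most of the high group. All 10 tested adipocyte genes had a difference above 0, with a median log2 of 2.37 against 0.00 for all genes, and 7 of 10 had an unadjusted p under 0.05 (2.84% of all genes were higher at that p), though none passed after adjustment (Lep and Ucp1 were too low to test). Their counts summed to between 689 and 4449 in the high libraries, with a median of 3628, and to between 269 and 1164 in the low libraries, with a median of 668. The sum was above every low library in 3 of the 5 high libraries, those of DSS_10.4, DSS_16.3 and control_10.5. In those of DSS_10.3 and control_10.6 it was 1060 and 689, within the low range.

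Adipoq, the adipocyte hormone adiponectin, had 465, 91.3 and 568 normalized counts in the high libraries of DSS_10.4, DSS_10.3 and DSS_16.3 and 488 and 50.2 in those of control_10.5 and control_10.6. In the low libraries its median was 28.1 and its highest value 120. Cfd, the complement factor D that adipocytes secrete, averaged 630 ± 458 in high and 77.4 ± 61.4 in low libraries (log2 3.02), and Car3, a carbonic anhydrase of fat, 854 ± 607 and 117 ± 66.7 (log2 2.57). Fabp4 averaged 227 ± 168 against 29.0 ± 18.0 (log2 2.68). Their adjusted p lay between 0.0535 and 0.0617.

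With the mean log2 of the adipocyte list as a covariate, chosen after seeing the data, no gene was called by limma (353 higher and 399 lower at an unadjusted p under 0.05). The difference in C3 was then 0.84 (adjusted p = 0.886), that in Cyp2e1 0.99 (adjusted p = 0.905) and that in Fgf1 0.96. Onecut2 stood at 1.995 and S100a4 at 1.58, both with an adjusted p of 0.530. The 3 libraries with the most C3, at 2584, 1765 and 1330, lay outside the comparison and had sums of adipocyte genes of 12160, 4826 and 5314, the highest of the 30. The same 3 libraries also ranked highest in Ovgp1 and in the summed genes of oviduct epithelium, ovarian surface epithelium and smooth muscle. Which of these tissues carried the C3 transcripts was not tested.

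mt-Te, a mitochondrial transfer RNA gene named after its values were seen, was high in part of the group. It had 3.97 and 8.69 in the high libraries of DSS_10.4 and DSS_10.3, 44.0 in that of DSS_16.3 and 53.2 and 26.5 in those of control_10.5 and control_10.6, against 0 to 4.42 in the low libraries (log2 2.68, adjusted p = 0.0535). A further library with 40.4 was the right ovary of DSS_15.1, outside the comparison. mt-Nd6, the mitochondrial gene next to it on the same strand, averaged 199 ± 107 against 65.7 ± 30.4 (log2 1.502, adjusted p = 0.267); it overlaps mt-Nd5 on the other strand, so its reads are uncertain. The 15 mitochondrially encoded genes had a median log2 difference of -0.02, with 6 above 0.

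No gene of progesterone synthesis passed the test of high against low libraries. Star was called only by its slope in the 8 libraries between the thresholds, named above, and the direction of that slope is not given here. Of 17 tested in that list, 10 lay above 0, with a median of 0.05. A fall of these genes, known of functional luteolysis, was thus not detected between the groups. The groups are therefore called by their Akr1c18 and not by luteolysis. Star, which carries cholesterol into mitochondria, averaged 4647 ± 486 against 4904 ± 1544 normalized counts in high and low libraries (log2 -0.01, 95% interval -0.39 to 0.36). Cyp11a1, the side-chain cleavage enzyme, averaged 9958 ± 1643 against 9664 ± 2270 (log2 0.07), Hsd3b1, which makes progesterone, 131700 ± 19910 against 140700 ± 20540 (log2 -0.09), and Scarb1, the receptor for cholesterol-carrying lipoproteins, 650 ± 81.6 against 691 ± 242 (log2 -0.004). Each of these had an adjusted p of 0.9998, and the signs of all 4 turned under some alternatives. The loci of Star, Cyp11a1 and Scarb1 overlap other genes.

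Of the other progestin-converting enzymes none passed either. The 7 tested had a median of 0.05, from -0.24 for Srd5a1 to 0.16 for Akr1c13. Srd5a1, the 5α-reductase, ran from 202 to 383 in the high libraries and from 273.3 to 406 in the low libraries (log2 -0.24, adjusted p = 0.983), and its locus overlaps Nsun2. Akr1c14 averaged 131 ± 7.59 against 122 ± 26.9 (log2 0.14) and Akr1c13, a near copy whose reads may be shared within the family, 8.18 ± 3.31 against 6.88 ± 1.53 (log2 0.16).

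Luteal markers lay mostly above 0 in the comparison without passing. Of 11 tested, Onecut2 included, 9 lay above 0 with a median of 0.17, 4 with an unadjusted p under 0.05 above 0 and 1 below. This depended on the setting. Against the other ovary of the 5 mice 4 of 11 lay above 0, with a median of -0.15. With the first part of the mouse label as a covariate 6 of 11 did, with a median of 0.007. The median was 0.015 with treatment as a covariate and 0.25 with the adipocyte score, where 8 of 11 lay above 0. Ptgfr, the prostaglandin F2α receptor through which luteolysis is induced, averaged 990 ± 217 against 639 ± 245 (log2 0.71, adjusted p = 0.779), and its locus overlaps Gm43618. Ephx2, an epoxide hydrolase, averaged 3891 ± 681 against 2860 ± 591 (log2 0.45), and Mgarp, a mitochondrial protein of steroidogenic cells, 3139 ± 512 against 3871 ± 507 (log2 -0.30). Lhcgr, the LH receptor, was at 1948 ± 538 against 1703 ± 658 and Prlr, the prolactin receptor, at 1935 ± 229 against 1890 ± 569. The summed luteal list overlapped between groups, at 11590 to 17740 in the high libraries and 9380 to 18100 in the low libraries, so luteal transcripts were present in both.

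In the outside libraries the slope of the luteal markers on Akr1c18 had a median of 0.63, with 10 of 11 above 0 and 8 with an unadjusted p under 0.05, against 48.6% of all genes above 0 and 2.88% at that p. Genes of cholesterol synthesis had a median slope of 0.40 there, with 19 of 21 above 0, and of progesterone synthesis 0.30, with 11 of 17 above 0. In the comparison itself the cholesterol synthesis list had 9 of 21 above 0 and a median of -0.03. The left ovary of DSS_11.2, outside the comparison, was lowest of all 30 libraries in summed luteal markers, at 3979, and in Star, at 1247. It was also lowest of the 30 in the summed genes of progesterone synthesis and of cholesterol synthesis. This library had the least Akr1c18 of the 15 outside libraries, at 34.1, and the most Ovgp1, at 66716. How far the slopes lean on it was not tested. No gene of these lists passed limma's test over all genes in the 15 libraries.

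Genes of macrophages and of antigen presentation lay mostly above 0. Of 20 macrophage genes 17 did, with a median of 0.28 and 8 higher at an unadjusted p under 0.05, and none passed; over all genes 50.4% lay above 0 and 2.84% were higher at that p. C1qa, a subunit of complement C1q, averaged 152 ± 23.5 in the high group and 109 ± 12.7 in the low group (log2 0.47, adjusted p = 0.194), C1qc 676 ± 160 and 471 ± 67.4 (log2 0.50), and Cd163, a scavenger receptor of tissue macrophages, had a log2 difference of 0.82. All 7 genes of MHC class II were above 0 (median 0.35), with H2-Eb1 at 323 ± 65.4 and 230 ± 56.8. So were all 18 tested genes of the interferon response (median 0.28), with Ifit2 at 55.6 ± 10.9 and 39.4 ± 7.99. With the adipocyte covariate the medians were 0.20 for macrophages, -0.19 for MHC class II and 0.11 for the interferon response.

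Lymphocyte genes were low in the compared libraries. Outside them the summed B and plasma cell genes reached 1112, in the left ovary of DSS_11.2. The 6 tested genes of B and plasma cells had a median of 0.39, with 4 above 0. Jchain, the joining chain of antibodies, was at 20.9 ± 9.35 against 9.17 ± 6.42, and Ms4a1, the B cell antigen CD20, at 6.99 ± 3.05 against 8.86 ± 4.98. The antibody genes Igkc and Ighm had log2 differences of 0.90 and 0.77. At an unadjusted limma p under 0.05, 3 of these 6 genes and 2 of 6 of T and NK cells were higher, against 2.84% of all genes, and none passed. The 6 of T and NK cells had a median of 0.31, led by Trac, the T cell receptor α chain, at 11.39 ± 6.54 against 4.57 ± 2.01 (log2 1.07, adjusted p = 0.786). With the adipocyte covariate these medians were -0.12 and 0.03.

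Lists of apoptosis, lysosomes, immediate early genes, matrix proteases and cell cycle had medians between -0.04 and 0.04. Among them Fas, a death receptor, ran from 6.98 to 15.14 in high and from 2.24 to 12.7 in low libraries (log2 0.71, adjusted p = 0.983), and Nr4a1, an orphan receptor known in rats to act on the Akr1c18 promoter, 14.9 ± 8.41 against 17.3 ± 6.02 (log2 -0.30). Growing follicle granulosa genes had a median of 0.00, with Cyp19a1, aromatase, at 96.4 ± 37.9 against 66.5 ± 47.3, and Amh, the anti-Müllerian hormone, at 1382 ± 297.1 against 1440 ± 266. Between both ovaries of the 5 mice, 18 of 18 granulosa genes lay above 0 in the high ovary with a median of 0.34. So did 21 of 24 cell cycle genes with a median of 0.35, against 49.1% of all genes. The other ovaries of DSS_10.4 and control_10.5 exceeded the limit on Ovgp1 and ranked 28 and 29 of the 30 libraries in summed granulosa genes. In DSS_10.3 that sum was lower in the high ovary, at 20670 against 24280, unlike in the other mice. Summed cell cycle genes were lower in the high ovaries of DSS_10.3 (9099 against 11850) and control_10.6 (9715 against 10170), and higher in the other mice. Theca and interstitial genes had 8 of 10 above 0 and a median of 0.14, with Cyp17a1, the androgen-forming enzyme, at 1879 ± 1513 against 1075 ± 661 (log2 0.985). The high library of DSS_10.4 had 4533 and the other 4 between 844 and 1619, and the log2 difference was 0.595 without DSS_10.4 and 0.53 without control_15.3. The summed theca and interstitial list ran from 7767 to 10710 in the high group and from 6423 to 8648 in the low group. Of the low libraries 9 of 10 lay below every high one, but only 1 high library lay above every low one. This count of 9 was the highest of all gene lists, followed by 6 for adipocyte genes, and its frequency by chance was not tested. No member of the list had an unadjusted limma p under 0.05. Its most abundant member, Wt1, averaged 3394 over the compared libraries with a log2 difference of 0.092. The sum is thus a description and no result for theca cells. LH surge genes had 3 of 8 above 0 and a median of -0.124. Runx1, the member of smallest p, had a log2 difference of -0.445 (limma adjusted p = 0.763). Pgr, the progesterone receptor, went the other way, at 55.5 ± 14.6 against 37.5 ± 15.7 (log2 0.64, adjusted p = 0.947). In the 7 libraries with much Ovgp1, Pgr ran from 94.6 to 803.

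Of the 506 members of 32 lists, 428 were tested and 0 passed limma's test in the comparison; edgeR called 8 and DESeq2 9 of them, against 0.146% and 0.257% of all genes, and 6 of the members called by each tool were adipocyte genes. Genes of the keratinocyte list summed to between 63.6 and 2865 in the high group and between 50.1 and 6236 in the low group, and oviduct genes to 432 to 593 and 361 to 668, so neither set separated the groups. With the adipocyte and keratinocyte scores together as covariates limma called no gene (340 higher and 368 lower at an unadjusted p under 0.05), and with log2(Ovgp1 + 1) it called C3, mt-Te, Cyp2e1, Onecut2 and Fgf1. The part of the other lists in the calls was not tested.

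**Figure D5:**
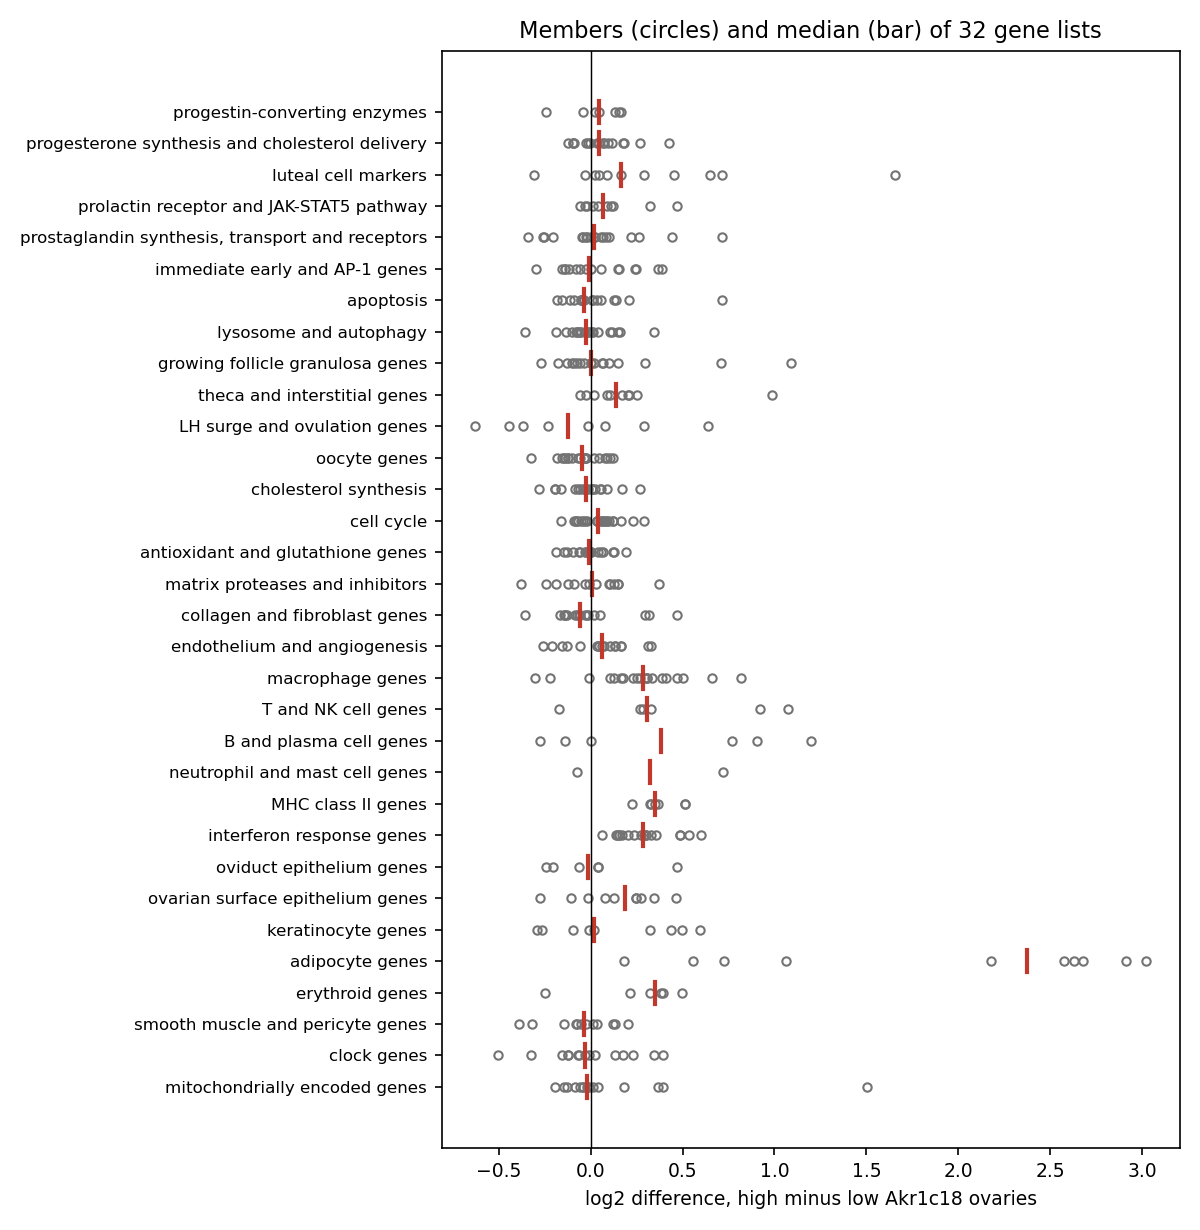
Log2 difference, high minus low Akr1c18 ovaries, for the tested members of 32 gene lists (circles) with the list median (bar). Adipocyte genes stand out with a median of 2.37; the lists of progesterone synthesis and of progestin-converting enzymes are centered at 0.05.

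The comparison within each treatment rested on few libraries. In DSS mice the log2 difference of Onecut2 was 0.75 (limma adjusted p = 0.9998), from 3 high and 3 low libraries, and in control mice 2.29 (adjusted p = 0.0843), from 2 and 7. For S100a4 it was 0.52 in DSS mice and 1.79 in control mice. The test of the difference between treatments called no gene among 14420 (0%), with an adjusted p of 0.996 for Onecut2 (unadjusted p = 0.00916) and for S100a4 (unadjusted p = 0.00606). C3 differed by 2.06 in DSS mice and 1.39 in control mice (interaction unadjusted p = 0.237). Limma called 2 genes in DSS libraries alone, C3 and Fgf1, and 0 in control libraries alone.

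With the first part of the mouse label (10 or another number) as a covariate, 5 genes were called: Retn, Adipoq, C3, Car3 and Cfd, of which only C3 is outside the adipocyte list. Within that fit Onecut2 had a log2 difference of 0.94 and S100a4 of 0.74 (adjusted p = 1.0 for both), against 1.66 and 1.20 without the covariate. Since 4 of 5 high libraries share that label, the label and Akr1c18 can be told apart only through DSS_16.3 and the low library of DSS_10.3.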

How the data were processed

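Ovary RNA was extracted with TRIzol and made into CEL-Seq libraries (3′ ends of polyadenylated RNA) with a pool of 3 primers per sample, per the labels' protocols. TopHat, HTSeq and DESeq2 were used on GRCm38.p5, per the submitters' processing notes; versions, strand setting and handling of molecular identifiers are not given in the sources used here. The authors deposited 1 non-negative signal per gene and library, normalized counts, which are read counts divided by a size factor. Dividing by each library's step gave whole reads for 99.98% to 100% of values above 0 within 0.0051, 3095386 to 8564770 reads per library. Of 50600 gene identifiers, 99.56% matched GENCODE M21.

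The groups follow from thresholds on measured Akr1c18 and Ovgp1. The members, the thresholds and the 32 gene lists were chosen with earlier results of these data known. limma 3.58.1 (R 4.3.3, trend, two-sided) was fitted to log2(value + 1) of genes whose mean over these libraries reached 5, with the mouse as a correlated block and Benjamini-Hochberg adjustment over all genes at 0.05; fold changes on this scale understate changes of low genes. The labels give each ovary its mouse, which pairs ovaries; the correlation within a mouse was 0.0105 in the comparison and 0.152 in the outside libraries. P-values thus measure the spread between these ovaries, and those over libraries of shared mice lean on that estimate. Normalized totals were alike (4168316 to 4608158 in the low group).

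The rule for named genes took at most 12 called genes in each direction, or else the 5 of smallest p, 2 to 4 members of each list with the smallest p, and 13 genes of luteal and follicular function; S100a4, mt-Te and the other genes whose groups did not overlap were added after their values were seen. The limma fits were tested on simulated data. Alternatives changed the pseudocount, filter, scaling, block, covariates, tool (edgeR 4.0.16 and DESeq2 1.42.0 on recovered reads), thresholds and mice; in those refits the correlation was estimated from every 7th gene.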

Additional observations from a re-analysis of the deposited data

Results flagged for a closer look

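A library far from the others of its group was looked for with Dixon's criterion in 149 genes and both groups. It picked out 18 sets of values, 1 set being a gene in a group. Chance gives about 1 in 20, or 14.9 over these genes and both groups, so the number is near that of chance and the values below are given as a description.

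The low right ovary of control_15.3 accounted for 7. It was lowest of the low libraries in Lhcgr (420.8 normalized counts), Cyp17a1 (44.71) and Soat1 (492.6), genes of steroid-forming cells, and highest in Tspo (111.3), Lox (100.8), Aldh1a2 (350.6) and Lmod1 (83.28), the last 3 expressed in stroma, mesothelium and smooth muscle. Without this mouse 9 genes were called, with C3, Cyp2e1 and Onecut2 among them. The low right ovary of control_11.4 was lowest in Ly6c2 (2.48) and highest in Pias2 (110.4) and mt-Co3 (15450).

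Of the other low libraries, the right ovary of DSS_10.3 had the lowest Sqstm1 (2289) and the right ovary of control_13.5 the highest Hba-a1 (2425). Among the high libraries, the left ovary of control_10.5 had the lowest Fst (84.7) and the highest Csf3r (70.28). The right ovary of DSS_16.3 had the highest Zp2 (86.57) and the lowest Tm7sf2 (12.57) and Trp63 (0.7), and the right ovary of DSS_10.4 the lowest Krt8 (97.32).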

How the results depend on the processing

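The comparison called 2 genes. It called 13 with a pseudocount of 5, 14 without the filter on low values, 21 by edgeR and 37 by DESeq2. As a slope over libraries with little Ovgp1 it called 6. With Ovgp1 or with the first part of the mouse label as a covariate it called 5, and 5 without the 2 high libraries of highest Akr1c18. With no limit on Ovgp1 it called 1, Onecut2, so C3 and Cyp2e1 did not pass there. In DSS libraries alone the comparison called 2, C3 and Fgf1, and in control libraries alone 0. It called 0 with 1 value per mouse (DSS_10.3 left out), at a median split and against the other ovary of the same mice. It also called 0 with adipocyte and keratinocyte scores or the adipocyte score alone as covariates. With the mouse as a fixed replicate block 1 gene was called, Cfd; since only DSS_10.3 has libraries in both groups, the contrast of that fit rests on the pairing of this mouse alone. Leaving out mice gave 0 to 16 calls, with 7 without DSS_15.1 and 9 without control_15.3. The cause of these changes was not tested. The 5 libraries of the high group limit the precision of every value.

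Over the outside libraries 4 genes were called where Ovgp1 was at most 5000, against 0. The DSS minus control difference in Akr1c18 was 0.963 in right ovaries alone and 0.29 to 0.77 without 1 mouse. The T and NK cell list had no tested member at a mean of at least 20.

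Signs turned for genes that did not pass. Star was at 0.052 with 1 value per mouse, 0.014 with side, 0.085 with both scores, 0.084 with the adipocyte score, 0.058 at the median split, 0.25 with no limit on Ovgp1, 0.093 in controls and 0.007 to 0.057 (among them 0.032, 0.039 and 0.043) without 1 mouse. Scarb1 was at 0.001 unfiltered, 0.024 with quantile scaling, 0.073 with 1 value per mouse, 0.03 with side, 0.023 at the median split, 0.23 with no limit on Ovgp1, 0.035 with the label covariate, 0.086 without the 2 high libraries of highest Akr1c18 and 0.004 to 0.087 (among them 0.021, 0.025 and 0.05) without 1 mouse. Hsd3b1 was at 0.004 with quantile scaling, 0.021 with both scores, 0.008 with the adipocyte score and 0.046 with no limit on Ovgp1. Cyp11a1 was at -0.11 with both scores, -0.12 in DSS libraries alone, -0.049 against the other ovary, -0.13 with the adipocyte score, -0.073 without the 2 high libraries of highest Akr1c18 and -0.023 without control_15.3. With the mouse as a fixed replicate block, Srd5a1 was at 0.073, Prlr at -0.31, Cyp19a1 at -0.44, Amh at 0.37, Cyp17a1 at -0.64 and Pgr at -0.12. Against the other ovary Srd5a1 was at 0.12, Lhcgr at -0.26, Prlr at -0.24, Amh at 0.30 and Pgr at -0.90. Prlr was also at -0.35 in DSS libraries alone, -0.17 with the label covariate and -0.001 without control_15.3; Amh at 0.11 at the median split, 0.37 in DSS libraries alone, 0.30 with the label covariate, 0.109 without the 2 high libraries of highest Akr1c18 and 0.003 without control_10.6. Lhcgr was at -0.28 in DSS libraries alone and Nr4a1 at 0.27 in controls alone. Outside the comparison the slope of Hspa1a was -0.001 with no covariate and that of Gm10240 0.19 in libraries with at most 5000 counts of Ovgp1.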
